A study of Mus musculus with 10 samples.

Results

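Macrophages and microglia of uninjured mouse optic nerve were compared with those of uninjured retina by droplet single-cell RNA sequencing. All cells of the uninjured libraries were taken, 174 of the 1168 cells in the series, with 131 from optic nerve and 43 from retina. The mice were Wildtype, of the 129S1/SvlmJ strain, 10 weeks old and of both sexes (the strain label also reads P56), and received no treatment. The other cells, 828 from injured optic nerve and 166 from injured retina, came from mice of the same strain and genotype, 2 weeks after an optic nerve crush, and are used only for a shared estimate of spread and for the last comparison. The 4 uninjured libraries were optic nerve 2 (103 cells, 351333 unique molecular identifiers, UMIs), optic nerve 4 (28 cells, 84121 UMIs), retina 5 (31 cells, 142787 UMIs) and retina 6 (12 cells, 56838 UMIs). The number of animals behind a library is not given in the sources used here, so p-values measure the spread between these libraries.

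Microglia are the resident phagocytes of nervous tissue and are present in both retina and optic nerve. In the unperturbed state they express a set of homeostatic genes for receptors and surface proteins, such as P2ry12, Tmem119 and Cx3cr1. Border macrophages, which express Mrc1 and F13a1, line meninges and vessels around the brain and optic nerve. The optic nerve also holds oligodendrocytes, which myelinate its axons, whereas the mouse retina is unmyelinated.

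The cells of each library were first checked against markers of these types. After clustering of all 1168 cells, 29 of 31 cells of retina 5 and 12 of 12 cells of retina 6 fell in a microglia-like cluster with P2ry12 and Tmem119 among its leading genes. In optic nerve 17 of 103 cells of library 2 and 11 of 28 cells of library 4 did so. Endothelial-like cells (at least 5 of 14 endothelial markers) of the same cluster were not counted. They were 2 cells of each optic nerve library and 1 cell of retina 5. Apart from 4 endothelial-like cells of injured optic nerve, this cluster held uninjured cells only. Ccl3, Jun and Egr1, which differed between the tissues, were also among its leading genes, so its size is given as a description and not as a difference in composition.

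A border macrophage-like cluster held 44 of 103 cells of optic nerve 2 (42.7%, exact Clopper-Pearson 95% interval 33.0% to 52.8%) and 1 of 28 cells of optic nerve 4. It held none of the 31 and 12 retina cells, and these counts of 0 leave room for shares up to 9.68% and 25%. A cluster of oligodendrocyte-like cells held 27 cells of optic nerve 2 and 4 cells of optic nerve 4, and no retina cell. Both optic nerve libraries thus held cells whose leading genes are not those of the labelled cell type, and optic nerve 2 was rich in border macrophage-like cells where optic nerve 4 was not. For both shares a two-sided exact permutation over the libraries gave p = 0.333, which is the smallest p that 6 assignments allow. At least 5 of 14 endothelial markers were seen in 2 cells of each optic nerve library and in 1 cell of retina 5. The 2 such cells of optic nerve 4 held 30.3% of its UMIs. The retina cell had no UMI of the endothelial junction gene Cldn5 and stood at 1481 CPM (UMIs scaled to a library total of 1000000) for P2ry12. The remaining 13 and 10 optic nerve cells and 1 retina cell lay in clusters that were not named.

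**Figure D1:**
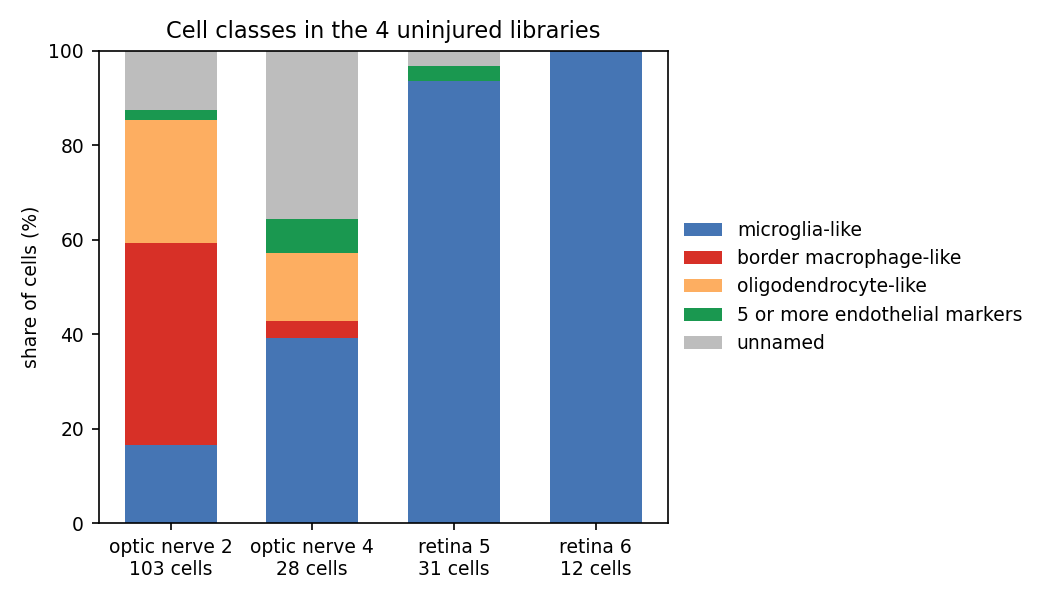
Share of cells in each class (vertical axis, percent) for the 4 uninjured libraries, with the number of cells under each bar. Nearly all retina cells were microglia-like, whereas border macrophage-like cells made up 42.7% of optic nerve 2 and 1 of 28 cells of optic nerve 4.

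Single markers were also counted without clusters. Mrc1, the mannose receptor, had a UMI in 40.8% of cells of optic nerve 2 and in 3.57% of optic nerve 4, and in 0 cells of both retina libraries. P2ry12, a purinergic receptor of microglia, had a UMI in 31.1% and 46.4% of optic nerve cells and in 87.1% and 100% of retina cells. At an equal depth of 1000 UMIs per cell (19, 9, 1 and 0 shallower cells left out) these P2ry12 shares were 18.5%, 39.6%, 61.5% and 71.1%. In optic nerve 2, P2ry12 stood at 1699 CPM in microglia-like and 29.7 CPM in oligodendrocyte-like cells, a cell type that should lack it. Retina cells were deeper, with medians of 4250 and 4712 UMIs against 2048 and 1470, and the order of the tissues was the same at equal depth.

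Myelin RNA was seen in nearly every optic nerve cell. Mbp, which encodes myelin basic protein, had a UMI in 93.2% of cells of optic nerve 2 and 96.4% of optic nerve 4, and in 0 of 31 and 1 of 12 retina cells. Myelin RNA was present in the microglia-like cells as well, at 1975 and 2812 CPM of Mbp in optic nerve against 0 and 17.6 CPM in retina. Myelin transcripts thus moved with tissue, also among microglia-like cells, and their part in the results below was not tested.

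Over all cells, summed per library, 75 of 2722 tested genes (2.76%) differed between the tissues by limma at a Benjamini-Hochberg adjusted p of at most 0.05. Of these 60 (2.2%) were higher in retina and 15 (0.551%) higher in optic nerve. Of the 60 genes, 23 were members of a list described below, and the rest included Pnrc1, Herpud1 and Sqstm1. The 15 genes comprised 13 ribosomal protein genes, Tpt1 and Dbi. A gene that did not pass is not shown to be level between the tissues. In sums over cells, fewer cells of a type and less RNA per cell cannot be told apart. Each of the 75 genes kept its sign when any 1 of the 4 libraries was left out, but few calls remained. Without optic nerve 2, or without retina 5, 0 genes passed by limma (244 and 230 at an unadjusted p under 0.05), where the lone library left in the group is assumed to vary like the other groups. Without optic nerve 4 there were 10 calls and without retina 6 there were 6, all higher in retina. With border macrophage-like, oligodendrocyte-like and endothelial-like cells left out, 7 genes were called higher in retina and 6 higher in optic nerve. Of these, 6 of the 7 were among the 60 genes, but only 1 of the 6 was among the 15.

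Immediate early genes, which cells transcribe within minutes of a stimulus, were higher in retina. Of the 23 tested, 7 were called higher in retina, where 2.2% of all tested genes were, and none higher in optic nerve. Their median log2 difference (optic nerve minus retina) was -1.20 against 0.017 over all tested genes. Egr1, a zinc finger transcription factor gene (ENSMUSG00000038418, chromosome 18, 34859823 to 34864984, GRCm38), stood at 638 and 737 CPM in optic nerve 2 and 4 and at 3397 and 4698 CPM in retina 5 and 6. Both optic nerve libraries lay far below both retina libraries. The fitted level was 5.73-fold higher in retina (log2 difference -2.52 ± 0.23, standard error, limma adjusted p = 0.00338).

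Junb, which encodes a subunit of the AP-1 transcription factor (chromosome 8, 84974484 to 84978718, overlapping another gene), stood at 3299 and 3828 CPM in optic nerve and at 10498 and 10011 CPM in retina. Its level was 2.87-fold higher in retina (limma adjusted p = 0.00799). Jun, another AP-1 subunit, stood at 3083 and 3055 against 9034 and 9817 CPM, and was 3.02-fold higher in retina (limma adjusted p = 0.0172). The groups did not overlap for either gene. Rhob, which encodes a small GTPase, stood at 740 and 892 CPM in optic nerve and 3089 and 3343 CPM in retina (limma adjusted p = 0.00403). The other called members, named after their values were seen, were Ier2, Atf3 and the kinase gene Sgk1, at log2 differences of -1.58, -1.52 and -3.66.

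Fos, the partner of Jun in AP-1, stood at 3120 and 3317 CPM in optic nerve and 7543 and 8691 CPM in retina, but did not pass (limma adjusted p = 0.145). Of the 23 members, 19 had both optic nerve libraries below both retina libraries, where 26.3% of all tested genes did. The summed level of the list was 28113 and 32727 CPM in optic nerve and 76716 and 76234 CPM in retina. Without the 3 other cell classes 3 members were called. Egr3 went the other way, with 216 and 47.6 CPM in optic nerve and 7.0 and 0 CPM in retina, and did not pass.

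The bases before the start of Atf3, Jun and Junb are shown because these called members encode transcription factors of 1 family and moved together. The 250 bases come from RefSeq (GRCm38.p6) and are written 5′ to 3′ on the strand of the gene, at chr1:191183334-191183583, minus strand, at chr4:95052223-95052472, minus strand and at chr8:84978749-84978998, minus strand.
Atf3: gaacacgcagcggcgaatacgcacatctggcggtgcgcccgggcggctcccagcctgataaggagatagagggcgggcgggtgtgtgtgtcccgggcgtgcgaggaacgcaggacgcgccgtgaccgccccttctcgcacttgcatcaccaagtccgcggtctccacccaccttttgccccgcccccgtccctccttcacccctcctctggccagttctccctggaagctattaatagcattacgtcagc
Jun: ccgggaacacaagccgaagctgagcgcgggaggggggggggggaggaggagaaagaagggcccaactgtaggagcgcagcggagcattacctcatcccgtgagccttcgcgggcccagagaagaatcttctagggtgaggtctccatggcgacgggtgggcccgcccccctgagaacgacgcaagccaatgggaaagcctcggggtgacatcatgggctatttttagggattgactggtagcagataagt
Junb: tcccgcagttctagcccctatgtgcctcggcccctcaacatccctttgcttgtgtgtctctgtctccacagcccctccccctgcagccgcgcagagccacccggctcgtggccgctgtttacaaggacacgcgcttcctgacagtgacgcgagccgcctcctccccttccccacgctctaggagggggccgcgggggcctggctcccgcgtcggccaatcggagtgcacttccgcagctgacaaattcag
No letter is in capitals, because neither TGACGTCA (the cyclic AMP response element), TGAGTCA (the AP-1 site) nor a CArG box was found there on either strand. None of the 3 was found in the 10 such windows of the 5 called members with an entry (Atf3, Jun, Junb, Rhob and Sgk1). Several of these windows belong to different starts of Sgk1. Only exact matches were sought, so near matches, such as tgacatca in Jun and ttacgtca in Atf3, were not counted. Over the 29 windows of 20 listed immediate early genes, TGACGTCA was found in those of Btg2 and Dusp1 and a CArG box in those of Egr2 and Zfp36. Over all 32851 windows of this length the shares were 1.55% for TGACGTCA, 4.46% for TGAGTCA and 1.47% for a CArG box. TGACGTCA and TGAGTCA cannot match at the same bases on the same strand.

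Homeostatic microglia genes were also higher in retina when all cells were summed. Of the 23 tested, 4 were called higher in retina, where 2.2% of all tested genes were, and none higher in optic nerve. Of the log2 differences 22 of 23 were below 0, with a median of -1.18. Olfml3, a secreted-protein gene used as a microglia marker (chromosome 3, 103722222 to 103738001), stood at 111 and 190 CPM in optic nerve and 833 and 1073 CPM in retina. It was 7.02-fold higher in retina (limma adjusted p = 0.00611). Cx3cr1, the fractalkine receptor gene, stood at 538 and 701 CPM against 2101 and 3167 CPM, which is 4.15-fold higher in retina (limma adjusted p = 0.00643). Gpr34, a lysophospholipid receptor gene, stood at 174 and 333 CPM against 1205 and 1337 CPM and was 5.59-fold higher (limma adjusted p = 0.00643). Selplg was called as well (log2 difference -1.47). In all 4 genes optic nerve 4 lay above optic nerve 2 and both lay below retina. P2ry12 (287 and 511 against 1030 and 1355 CPM) and Tmem119 (145 and 380 against 756 and 774 CPM) did not pass. Csf1r, the receptor on which both microglia and macrophages depend, stood at 1227, 1403, 1212 and 1267 CPM, close to level in all libraries. Without the 3 other cell classes no homeostatic gene was called, and the share of microglia-like cells moved with this group, as given above.

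Single genes of stress and protein quality control were also called higher in retina. Herpud1, which acts in degradation of misfolded proteins of the endoplasmic reticulum, stood at 165 and 190 against 1015 and 1179 CPM (limma adjusted p = 0.00799). Sqstm1, the autophagy receptor gene, stood at 111 and 107 against 777 and 616 CPM (limma adjusted p = 0.00643). Of 12 heat shock genes only the co-chaperone Dnajb1 was called (-2.51 ± 0.42, limma adjusted p = 0.0194), and the inducible genes Hspa1a and Hspa1b, near-identical copies whose reads are hard to separate, were not, at 0.64 and 1.01. Pnrc1, a nuclear receptor coactivator gene, was 4.38-fold higher in retina, and Rbm3, a cold-inducible RNA-binding protein gene, 3.45-fold higher.

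Genes of inflammatory signalling and surface receptors contributed single calls. Tnf, an inflammatory cytokine gene (chromosome 17, 35199381 to 35202007), stood at 102 and 250 CPM in optic nerve and 1268 and 1302 CPM in retina, 9.35-fold higher in retina (limma adjusted p = 0.0194). Ccl3, a chemokine gene, stood at 1417 and 903 against 10281 and 6439 CPM (limma adjusted p = 0.0421). These were the 2 called of 14 chemokine and cytokine genes, whose median was -0.14. Of 16 disease-associated microglia genes, 2 were called higher in retina, namely the lipid receptor gene Trem2 (527 and 559 against 1807 and 2129 CPM) and the tetraspanin gene Cd9 (564 and 1213 against 2360 and 3554 CPM). Ly86 and Cd180, whose products form a receptor complex, were the 2 called of 10 Fc, Toll-like and pattern receptor genes, at -2.18 and -2.55. Of these 10 genes, 6 had both optic nerve libraries below both retina libraries and 1 had both above. Over all tested genes the share was 26.3% each way. Cd14 went the other way, at 2007 and 1106 CPM in optic nerve and 497 and 475 CPM in retina, and did not pass. Itgam, the complement receptor subunit also known as CD11b, was the 1 called of 9 complement genes (-2.06). Of these 9 genes, 6 had both optic nerve libraries below both retina libraries and 2 had both above, beside the same 26.3% each way. C4b was far higher in optic nerve, at 1130 and 796 CPM against 14.01 and 17.6 CPM in retina, but did not pass. Lgmn and Ctss, lysosomal proteases, were the 2 called of 20 lysosome genes (-0.92 and -1.13). Of 18 actin cytoskeleton genes Actg1 alone was called (-1.51). Medians were -1.14 for the disease-associated list, -0.69 for receptors, -0.84 for complement, -0.28 for lysosome and 0.045 for actin cytoskeleton. Over all tested genes 2.2% were called higher in retina, so single calls do not show that a list as a whole was higher there.

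Ribosomal protein genes were the main group higher in optic nerve. Of 80 tested, 13 were called higher in optic nerve and 1, Rpl29, higher in retina, with a median log2 difference of 0.48. Over all tested genes 0.551% were called higher in optic nerve and 2.2% higher in retina. Rps21, of the small subunit (chromosome 2, 180257377 to 180258445, overlapping another annotated gene), stood at 3601 and 3126 CPM in optic nerve and 1345 and 1056 CPM in retina, 2.81-fold higher in optic nerve (limma adjusted p = 0.0194). Rpl17, of the large subunit, stood at 1600 and 1771 against 434 and 352 CPM, 4.17-fold higher (limma adjusted p = 0.0172). Rplp1, an acidic protein of the ribosomal stalk, stood at 5306 and 4993 against 1709 and 1900 CPM. For none of these 3 genes did the groups overlap, and 58 of the 80 had both optic nerve libraries above both retina libraries, where 26.3% of all tested genes did. These genes have many processed pseudogenes. Uninjured retina held UMIs only in the first 27998 of 52181 gene entries, where optic nerve 2 and 4 had 154 and 72 genes beyond them. Whether annotation or merging differed for uninjured retina was not tested. Tissue and any such difference cannot be told apart for the ribosomal protein genes. Without the 3 other cell classes 1 ribosomal gene was called higher in optic nerve. Tpt1, a translationally controlled gene, stood at 6065 and 6134 against 2444 and 2551 CPM, and Dbi, an acyl-CoA binding protein gene, at 407 and 428 against 119 and 176 CPM (limma adjusted p = 0.0306 and 0.0327).

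**Figure D2:**
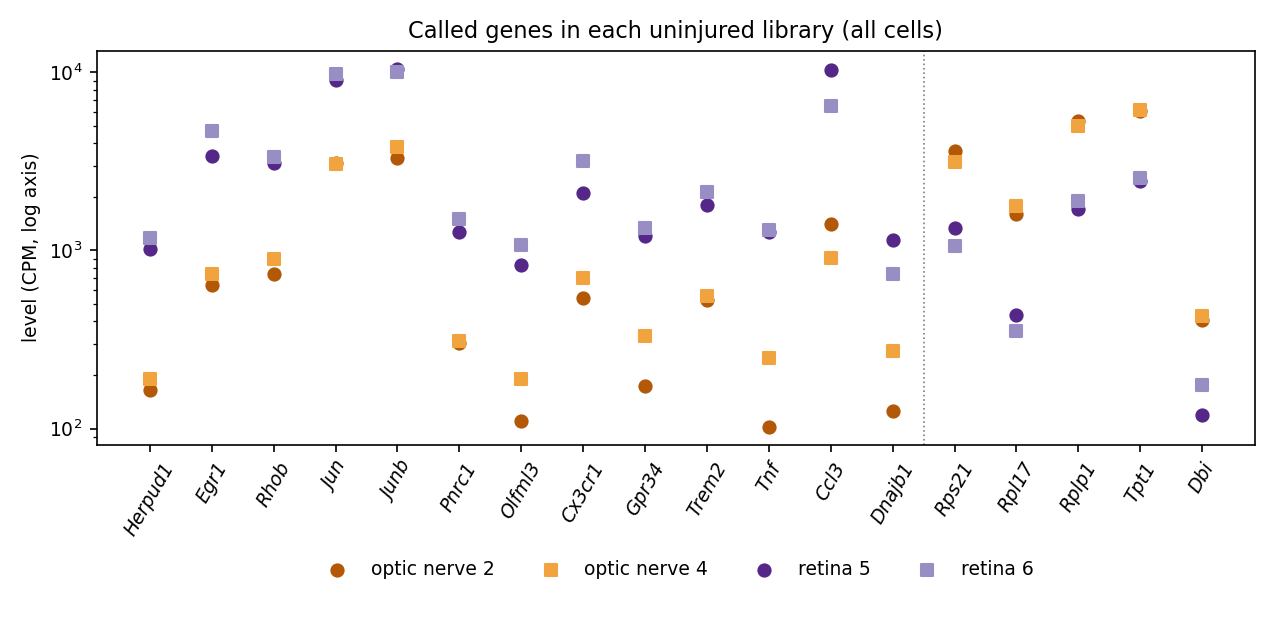
Level of 18 called genes (horizontal axis) in each uninjured library (CPM, log axis), all cells summed; genes left of the dotted line were higher in retina and those right of it higher in optic nerve. For each gene the 2 optic nerve points lie on 1 side of the 2 retina points, as for Egr1 with 638 and 737 against 3397 and 4698 CPM.

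Some lists with large medians held no called gene and libraries of 1 tissue that lay far apart. Of 19 border macrophage genes, 12 had 0 UMIs in retina and 6 were tested, with a median of 1.55 and no call. Mrc1 had 297 and 9 UMIs in optic nerve and was at least 46.8-fold higher than in retina with 3 UMIs in both retina libraries together as the floor, and Pf4 (386 and 17 UMIs) at least 61.6-fold. Nearly all of these UMIs came from optic nerve 2. Of 6 tested class II antigen presentation genes none was called, with a median of 2.02. Cd74, the invariant chain gene, stood at 6401 and 4018 CPM in optic nerve and 4076 and 176 CPM in retina. In retina 5, 97.6% of Cd74 UMIs lay in 4 cells, and in optic nerve 4 it was 99.7%. Apoe, an apolipoprotein gene, stood at 21239, 15418, 19883 and 6545 CPM, with 93.2% of its optic nerve 4 UMIs, 91.0% of its retina 5 UMIs and 100% of its retina 6 UMIs in 4 cells. In optic nerve 2 the UMIs were spread more widely, with 30.5% of Apoe and 51.6% of Cd74 UMIs in 4 cells and an Apoe UMI in 89 of 103 cells.

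The remaining programs held no call, with medians of -0.24 for transcription factors of microglia and macrophages, -0.56 for class I presentation, 1.25 for interferon response, -0.33 for iron handling, -0.24 for glycolysis, 0.15 for the nuclear respiratory chain and 0.64 for mitochondrially encoded genes. The 7 lipid handling genes had a median of 1.02 and 1 call, Dbi. The summed level of mitochondrially encoded genes was 74351 CPM in optic nerve 2, 38350 CPM in optic nerve 4, and 29022 and 31352 CPM in retina. Markers of other cell types were also summed. Those of astrocytes stood at 1474 and 1950 CPM in optic nerve and 14.01 and 35.2 CPM in retina, where 7 of 9 (Gfap and Aqp4 among them) were at 0. Slc1a3 alone held 407 and 939 CPM of the optic nerve sums. Fibroblast and meningeal markers stood at 1221 and 345 CPM in optic nerve, and retina had 0 UMIs of them. Endothelial markers stood at 427 and 4577 CPM against 154 and 35.2 CPM, with 6 of 14 at 0 in retina. These markers moved with tissue, and their part in the results was not tested. Markers of rod photoreceptors summed to 14.2, 11.9, 70.0 and 17.6 CPM over the 4 libraries, and those of T and NK cells to 2.85 CPM in optic nerve 2 and 0 in the others.

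To set like cells side by side, the test was repeated within the microglia-like cluster, on 17 and 11 optic nerve cells against 29 and 12 retina cells. This was chosen after the data were seen. limma called 105 of 2722 genes (3.86%), of which 59 (2.17%) were higher in optic nerve and 46 (1.69%) higher in retina. Of the 75 genes called over all cells, 25 were also called here, all with the same sign, and 23 of these were higher in retina. The cluster cells are part of the cells tested above. They held 88.4% and 100% of the UMIs of retina 5 and 6, and 13.4% and 29.6% of those of optic nerve 2 and 4. The shared signs are thus no separate support. Genes that lead the cluster (Ccl3, Jun, Egr1, P2ry12 and Tmem119 among them) helped to choose these cells, so their values within it, and those of lists that hold them, are a description. The same holds for lists without those genes, since the clustering used 2000 variable genes.

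Homeostatic genes had a median of 0.43 within the cluster (0.49 without P2ry12 and Tmem119, which lead it), against -1.18 over all cells and -0.068 for all tested genes within the cluster. Cx3cr1 stood at 2506 and 1928 CPM in optic nerve and 2282 and 3167 CPM in retina, so that the groups overlapped (log2 difference -0.37 ± 0.38, limma adjusted p = 0.607). Olfml3 stood at 446 and 442 CPM against 887 and 1073 CPM and did not pass (limma adjusted p = 0.101). The 2 homeostatic genes called in the cluster, both higher in retina and named after their values were seen, were Fcrls (-3.81) and Ltc4s (-2.25). Within the cluster 1.69% of all tested genes were called higher in retina.

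Of the 23 immediate early genes 7 were called higher in retina within the cluster and 1 higher in optic nerve. Of the 23, 4 lead the cluster, and the 1 higher in optic nerve is among them. The other 19 had a median of -1.13, and 6 of them were called higher in retina and none higher in optic nerve. Over all tested genes 1.69% were called higher in retina there and 2.17% higher in optic nerve. Fos was called here (-1.50 ± 0.34, limma adjusted p = 0.0131), as were Klf2, a transcription factor gene (-2.01), Rhob (-1.37) and Sgk1 (-2.45). Stress genes called higher in retina included Dnajb1 at -2.82, Herpud1 at -2.13 and Hspa5, the chaperone of the endoplasmic reticulum, at -1.90. Apoe was called higher in retina within the cluster, with 1762 and 964 CPM in optic nerve and 13279 and 6545 CPM in retina (limma adjusted p = 5.8e-05). In the cluster 12 of 29 cells of retina 5 and 4 of 12 cells of retina 6 had an Apoe UMI, and 4 cells of each library held 92.1% and 100% of them, so the call rests on a few cells. Over all cells the difference was 0.66 and did not pass.

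The ribosomal list had a median of -0.37 within the cluster. Of its 80 tested members 2, Rpl17 (1.63) and Rps15 (1.57), were called higher in optic nerve, near the 2.17% of all tested genes. The 1 called higher in retina was Rpl29 (-2.58). The class II list moved from a median of 2.02 over all cells to -2.14, with Cd74 at 191 and 121 CPM in optic nerve and 4611 and 176 CPM in retina, where retina 5 alone was high. Genes called higher in optic nerve within the cluster included the glutamate transporter Slc1a3 (2272 and 2933 CPM against 15.8 and 17.6 CPM), the cytokine gene Il1b (3.84 ± 0.86, limma adjusted p = 0.0112) and the nuclear RNA Malat1 (1.46 ± 0.28, limma adjusted p = 0.00322). Mbp was called too (7.94 ± 0.999), beside the myelin RNA given above. Over all cells, 4 cells held 47.8% and 92.5% of the Il1b UMIs of optic nerve 2 and 4. In retina 5, 4 cells held 79.3% of them, and retina 6 had 0 Il1b UMIs. Over all cells Slc1a3 stood at 407 and 939 CPM in optic nerve, below its levels in the cluster. Astrocytes also express Slc1a3, and the other astrocyte markers in the cluster cells were not tested.

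**Figure D3:**
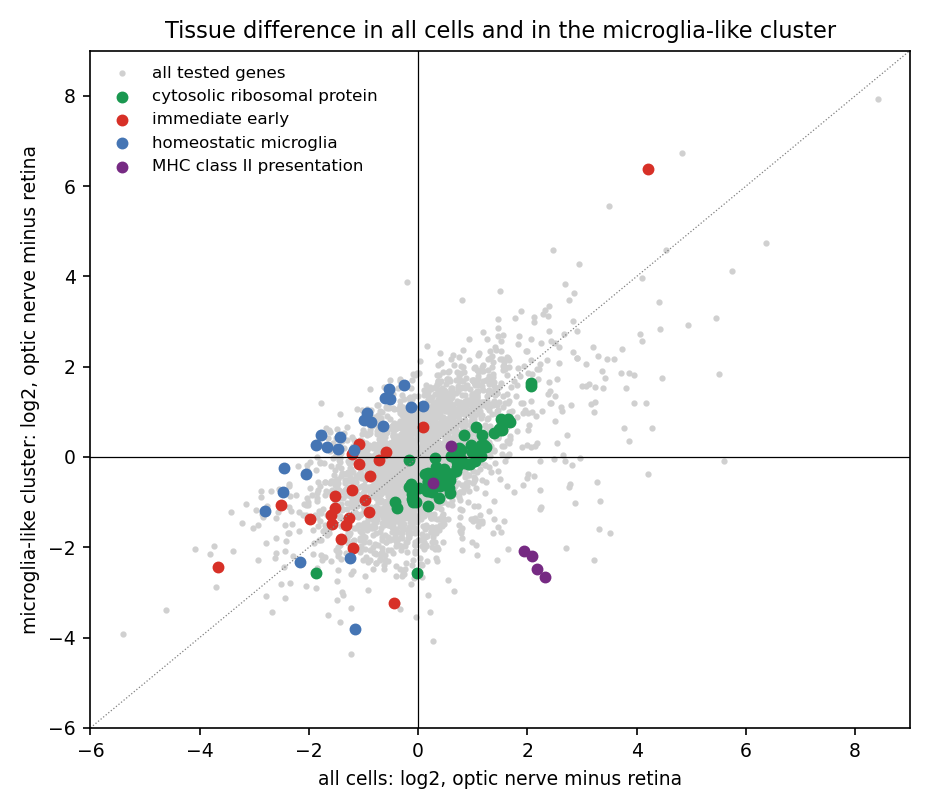
Log2 difference between optic nerve and retina over all cells (horizontal axis) and within the microglia-like cluster (vertical axis) for 2722 tested genes, with 4 lists in colour and a dotted line of equal values. Homeostatic genes lie left of 0 over all cells but on both sides of 0 within the cluster (medians -1.18 and 0.43), while most immediate early genes lie below 0 over all cells and their medians are -1.20 and -1.07.

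The tissue difference was also compared with that after crush. limma called 73 of 2722 genes (2.68%) whose tissue difference in uninjured libraries differed from that in injured ones, 39 (1.43%) above 0 and 34 (1.25%) below 0. Between injured tissues 554 genes (20.4%) were called. Both fits share the uninjured libraries, so the values are given side by side. Injured and uninjured retina held different cells. Of injured retina cells, 84 of 109 and 33 of 57 lay in an unnamed cluster led by Hsp90aa1, Hspa1a and Hspa1b. Another 22 and 24 lay in an unnamed cluster with Il7r and Ccl5 among its leading genes. No uninjured retina cell lay in either cluster, and the part of these cells in the comparison was not tested. Olfml3 had a tissue difference of -2.81 in uninjured and 1.34 in injured libraries (difference -4.15 ± 0.40, limma adjusted p = 0.00276), with 160 and 170 CPM in injured optic nerve and 71.8 and 48.2 CPM in injured retina. Trem2 had -1.83 and 1.37, Cd9 -1.85 and 1.75, and Gpr34 -2.48 and 0.71, each with limma adjusted p = 0.00609 for the difference. Retina was the higher tissue for these 4 genes without injury. After crush optic nerve was called higher for Olfml3, Trem2 and Cd9, while Gpr34 did not pass (limma adjusted p = 0.078).

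Of 12 heat shock genes 6 were called for the difference between the tissue differences, all above 0, as were 1.43% of all tested genes. Hspa1b stood at 1526 and 939 CPM in uninjured optic nerve, 861 and 387 CPM in uninjured retina, 3.14 and 21.4 CPM in injured optic nerve and 5287 and 6221 CPM in injured retina. Its difference of tissue differences was 9.20 ± 0.69 (limma adjusted p = 0.000694). The values for Hspa1a (7.28) and Hsph1 (4.82) were also above 0. Of the 39 genes above 0, 26 were ribosomal protein genes, such as Rpl23a (3.88 ± 0.34, limma adjusted p = 0.00158) and Rpl17 (3.74). Uninjured retina is the group whose annotation or merging may have differed, and this cannot be told apart from its biology in this comparison. Egr1 had nearly equal tissue differences of -2.52 and -2.50.

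**Figure D4:**
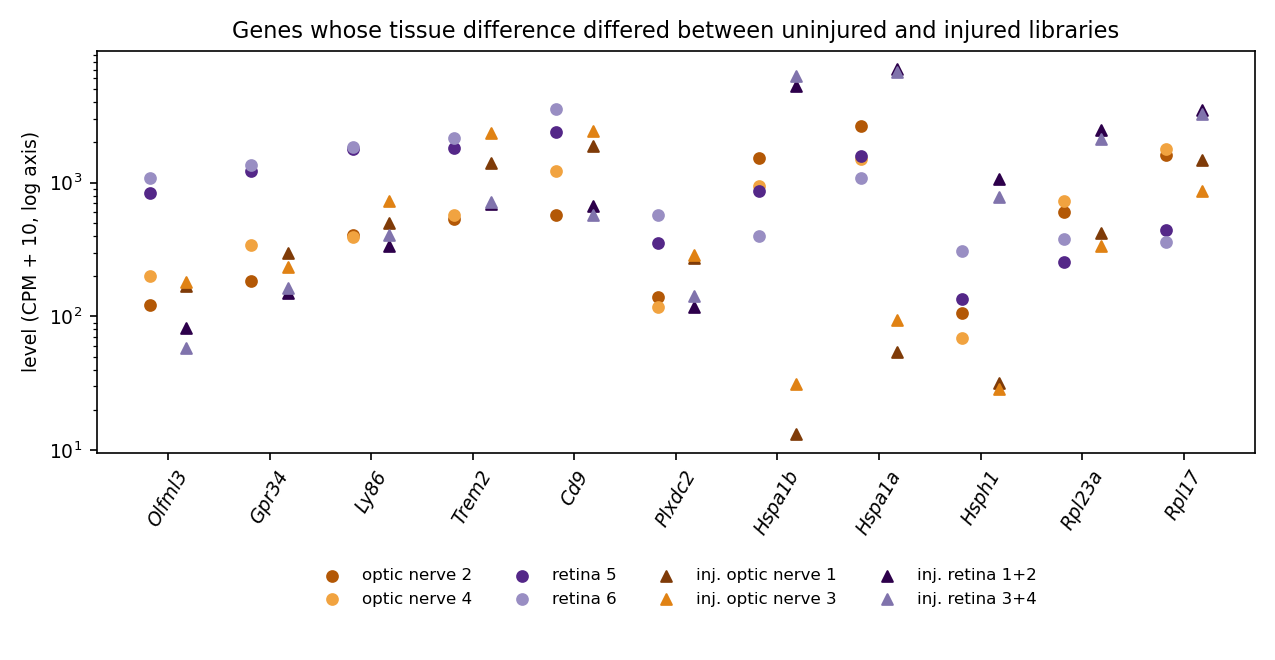
Level (CPM plus 10, log axis) of 11 genes (horizontal axis) whose tissue difference differed, in the 4 uninjured libraries (circles) and the 4 injured ones (triangles). Olfml3 and Gpr34 were highest in the 2 uninjured retina libraries, and Hspa1b reached 5287 and 6221 CPM in the injured retina pools against 3.14 and 21.4 CPM in injured optic nerve.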

How the data were processed

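Per the submitters' processing notes, Cell Ranger 1.3, bcl2fastq 2.17.1.14, Seurat 4.0.3 and the mm10 build were used; per the labels, cells with 200 to 6500 genes were kept. For retina the authors deposited raw UMI counts. For optic nerve the authors deposited natural log values, ln of 1 plus 10000 times UMIs over the cell total; each gave a whole count within 0.01 when undone. Sums per library over all cells entered limma 3.58.1 with voom weights and TMM scaling, fitted on all 8 libraries (injured retina as 2 pools of 2 samples). Rows needed a UMI in both uninjured tissues (8895) and a mean of 50 CPM (2722). Of uninjured retina UMIs 1.72%, and of optic nerve UMIs 6.24%, lay in rows of that tissue only.

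Clusters came from scanpy 1.11.5 (Leiden resolution 0.5 on 15 neighbours in 30 components of 2000 variable genes), and were named from 2 markers among their 10 leading genes and 3 among 50. No doublet caller was run; uninjured libraries shared 0 barcodes. Symbols and coordinates are from GENCODE M21 (GRCm38; 31394 of 31833 identifiers matched). The fit was tested on simulated data, where most of the changed genes were not called and no unchanged gene was. Named genes were the 12 with the smallest adjusted p per direction at a mean of 100 CPM, up to 4 per list (2 where none passed) and 6 per direction in the comparison with injury. Members and lists were chosen with earlier results of these data known. Intervals and floors cover counting error only. Alternatives were edgeR 4.0.16, DESeq2 1.42.0, other filters, scalings, cell sets and left-out libraries. Some genes are not reported here.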

Additional observations from a re-analysis of the deposited data

Results flagged for a closer look

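The tissue difference of 73 genes differed between uninjured and injured libraries by the test of the difference itself (limma). On the log2 scale, uninjured minus injured, it was 3.74 for Rpl17, 3.88 for Rpl23a, 9.20 for Hspa1b, 7.28 for Hspa1a and 4.82 for Hsph1. It was -4.15 for Olfml3, -3.20 for Gpr34, -2.93 for Ly86, -3.19 for Trem2, -3.60 for Cd9 and -2.87 for Plxdc2. Injured and uninjured retina cells lay in different clusters, as given above.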

How the results depend on the processing

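No paired analysis was possible because the compared groups share no replicate number (optic nerve 2 and 4, retina 5 and 6). Genes called higher in optic nerve and in retina numbered 15 and 60. The first count was 23 on the 4 uninjured libraries, 26 at a mean of 100 CPM, 110 and 99 with limma trend (prior count 2 and 0.5), 62 with edgeR, 70 with DESeq2, 77 on mean ln values, 6 without border macrophage-, oligodendrocyte- and endothelial-like cells, 59 in the microglia-like cluster and 59 with edgeR on the 4 libraries, both chosen after seeing the data. Of the 15 genes, 2 were still called on mean ln values, 1 without those 3 classes, 2 in the cluster and 5 with edgeR on the 4 libraries. All 15 were still called with limma trend, and 14 with edgeR and with DESeq2. The second count was 37 at 100 CPM, 98 with limma trend (prior count 2) and 520 on mean ln values. It was 7 without those 3 classes and 38 with border macrophage-like cells kept. Leaving out 1 library gave 0 to 0 and 0 to 10. The count for the difference from injured tissue was 258 on mean ln values and 4 to 45 with 1 library left out. Immediate early calls in retina were 11 with DESeq2, 20 on mean ln values, 3 without the 3 classes, 4 with edgeR on the 4 libraries and 0 to 3 with 1 library left out. Homeostatic calls in retina were 7, 14 and 0 in the first 3 of these, 2 in the microglia-like cluster and 0 to 4 with 1 library left out. Ribosomal calls in optic nerve were 21 at 100 CPM, 6 with no minimum, 2 on mean ln values, 1 without the 3 classes, 8 with border macrophage-like cells kept, 2 in the cluster, 6 with edgeR on the 4 libraries and 0 to 0 with 1 library left out. At Leiden resolution 1.0 microglia-like shares were 26.2% and 67.9% of optic nerve 2 and 4, and unnamed cells 7.14% of optic nerve 4; at 0.3 oligodendrocyte-like shares were 7.77% and 3.57%, and unnamed cells 31.1% of optic nerve 2. Signs reversed for Rpl28 on mean ln values (-0.0106), for Tpt1 (-0.22), Selplg (0.18), Lgmn (0.20), Ctss (0.046) and Apoe (-2.96) in the cluster, and for Selplg (0.014) and Ctss (0.0061) without the 3 classes. The cause was not tested.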
